A study of Mus musculus with 37 samples.

Results

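The 24 h response of Bmal1-deficient macrophages to Kdo2-lipid A (KLA) was read from 2 polyA RNA libraries of Arntl-/- bone marrow-derived macrophages (BMDMs), 1 made at 0 h and 1 at 24 h, of the 37 samples in the series. All 24016 genes of the expression table entered, and the 10487 that reached 100 scaled reads in at least 1 WT library are described below. Arntl encodes Bmal1, a core transcription factor of the circadian clock, and the study asked how its loss alters the time course of the response to Toll-like receptor 4 (TLR4). WT and Arntl-/- cells were harvested 0, 6, 24 and 48 h after KLA, and a single library was made per genotype and time. The cells came from male mice aged 6 to 9 weeks, which the labels place on the C57BL/6J strain, and the marrow was cultured for 6 days with M-CSF, at 20 ug/ml according to the labels. The Arntl-/- cells carry the null allele in every cell type and throughout life, so an effect of Bmal1 loss in the macrophage itself cannot be told apart from one acquired in the animal. The amount of KLA given to the sequenced cells was not given in the sources used here, and neither was the number of mice behind a library.

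KLA is the lipid part of bacterial lipopolysaccharide and is sensed by TLR4 with CD14 and MD-2. The receptor signals through MyD88 and TRIF. The MyD88 arm activates NF-kB and the genes of cytokines and chemokines, and the TRIF arm induces interferon-beta, which acts back on the cell through its receptor and switches on the interferon-stimulated genes. Over hours to a day macrophages also turn on nitric oxide and itaconate synthesis, shift towards glycolysis and leave the cell cycle that M-CSF had kept running, while inhibitors such as SOCS3 and A20 limit the response.

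With 1 library on each side no difference has a replicate check and no p-value can be given. A gene was called higher or lower, and "rose" or "fell" is written, where its scaled level differed at least 2-fold. The level is FPKM (fragments per kb of exon and, in this table, per 10000000 reads) divided by a median-of-ratios size factor. Folds and log2 changes were taken after adding 0.1. Bracketed ranges are 95% intervals of the log2 change that cover the counting of reads and nothing else. In such bulk samples fewer cells of a type and less RNA per cell cannot be told apart.

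The 8 libraries held between 8587560 and 27036783 reads on genes, with 18166576 at 0 h and 15350455 at 24 h in Arntl-/- cells, and their size factors lay between 0.918 and 1.13. Reads on the ribosomal RNA precursor Rn45s made up 0.705% of the 0 h library and 1.19% of the 24 h library, and the part of this difference in the results was not tested. The 10 macrophage markers were all detected and their summed level was 18474 at 0 h and 26923 at 24 h, led by Lyz2. The 12 stromal markers summed to 498 and 556, the 11 neutrophil markers to 1206 and 1299, the 10 dendritic cell markers to 14.1 and 14.5, the 10 lymphocyte markers to 32.4 and 45.6, and the 8 erythroid and mast cell markers to 1.71 and 1.83. No read was found in either library for the neutrophil genes Mpo and Ctsg, the T cell genes Cd3e and Cd3g, or the haemoglobin gene Hbb-b1. Other markers of the neutrophil list were detected, among them S100a8 with 485 reads at 0 h and 398 at 24 h. Of the stromal list, 1 of 10 tested genes rose, beside 2.38% of all tested genes, the PDGF receptor gene Pdgfrb (4.40 to 9.94).

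Arntl itself (chromosome 7, 120350979 to 120457640, mm9) gave 125 reads at 0 h and 136 at 24 h in the Arntl-/- libraries. Its level was 13.9, 11.3, 18.8 and 20.2 at 0, 6, 24 and 48 h, against 34.3, 32.3, 35.6 and 38.7 in WT cells. The level was lower in each Arntl-/- library than in every WT library but was not 0. The table counts reads over all exons together, so reads from the deleted and the remaining exons were not separated here.

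Between 0 and 24 h, 250 of the 10487 genes (2.38%) rose at least 2-fold in Arntl-/- cells and 317 (3.02%) fell. The median log2 change over all tested genes was 0.01, and the lower and upper quartiles were -0.24 and 0.25. At a limit of 1.5-fold the counts were 818 (7.80%) and 1004 (9.57%). At least 4-fold changes were fewer, with 21 genes higher and 16 lower. The counting interval lay wholly above or below no change for all 567 called genes (5.41%), and wholly beyond 2-fold for 147 of the 250 and 114 of the 317. The genes nearest the limit had log2 changes of 1.0029 just inside and 0.99978 just outside it among those higher, and -1.00004 and -0.99974 among those lower. The genes that rose included 22 interferon-stimulated genes, 10 GTPases of the GBP and IRG families, Nos2 and Il1b, and those that fell included 20 genes of the cell cycle and DNA replication and 3 CC chemokines.

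**Figure D1:**
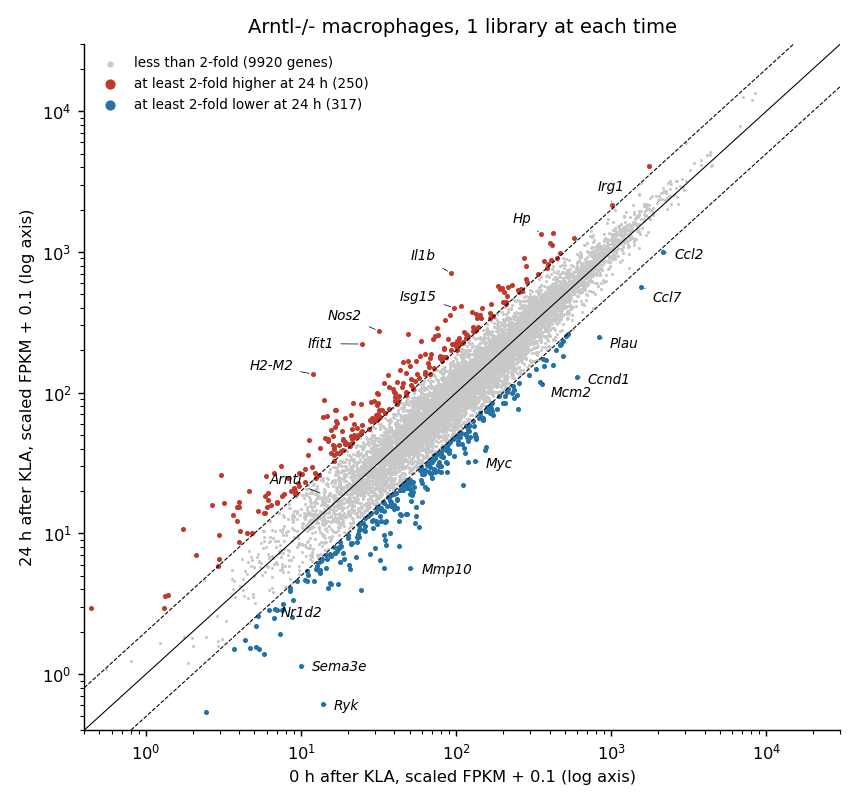
Scaled FPKM plus 0.1 of the 10487 tested genes in the Arntl-/- library at 0 h (x axis) and at 24 h (y axis), both on log axes, with 1 point a gene, a solid line at equal levels and dashed lines at 2-fold. Most genes lay between the dashed lines, with 250 genes above the upper one and 317 below the lower one.

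Sequences of 3 promoters show motifs by which interferon-stimulated, NF-kB-driven and cell cycle genes are usually grouped. They are RefSeq promoters on the GRCm38.p6 build, 250 bases before the transcript start and 50 from it, for the gene with the largest change in its list whose promoter holds the motif searched. Ifit1 (chr19:34640639-34640938, plus strand) is shown with the interferon-stimulated response element core GAAANNGAAA in capitals. Bcl3 (chr7:19822706-19823005, minus strand) is shown with the kB consensus in capitals. Mcm2 (chr6:88898731-88899030, minus strand) is shown with the cell cycle homology element TTTGAA in capitals. Both strands were searched, and only the named motif is marked in each.
Ifit1: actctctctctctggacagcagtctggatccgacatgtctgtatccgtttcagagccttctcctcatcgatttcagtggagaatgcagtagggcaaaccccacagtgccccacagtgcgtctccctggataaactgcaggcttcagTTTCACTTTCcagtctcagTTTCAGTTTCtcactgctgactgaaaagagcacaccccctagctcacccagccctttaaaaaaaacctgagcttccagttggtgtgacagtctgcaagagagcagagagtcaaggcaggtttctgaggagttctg
Bcl3: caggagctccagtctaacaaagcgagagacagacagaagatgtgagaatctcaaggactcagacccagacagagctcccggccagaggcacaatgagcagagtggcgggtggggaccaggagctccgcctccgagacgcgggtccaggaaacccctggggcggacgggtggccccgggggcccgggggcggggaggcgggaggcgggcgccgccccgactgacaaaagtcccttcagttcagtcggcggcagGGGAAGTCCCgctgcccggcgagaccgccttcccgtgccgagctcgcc
Mcm2: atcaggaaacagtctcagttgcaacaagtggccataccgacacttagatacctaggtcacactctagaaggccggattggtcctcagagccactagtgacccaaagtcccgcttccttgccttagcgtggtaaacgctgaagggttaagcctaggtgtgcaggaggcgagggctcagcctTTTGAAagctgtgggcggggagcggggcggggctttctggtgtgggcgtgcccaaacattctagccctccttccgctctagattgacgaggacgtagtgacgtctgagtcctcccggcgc
The interferon element was found in 3.44% of the 32851 promoters of the table, the kB consensus in 4.51% and the cell cycle element in 17.9%. A comparison of these shares between lists was void, because fewer than 80% of the genes of each list had a promoter in the table (77.2% of the interferon list, 77.8% of the NF-kB list and 76.7% of the cell cycle list). A match in these windows is a description of the letters and not a measured binding site.

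Interferon-stimulated genes rose more often than any other list of more than 20 tested genes. Of 57 tested members 22 rose and 0 fell, beside 2.38% and 3.02% of all tested genes, all 57 log2 changes were above 0, and their median was 0.78 beside 0.01 for all genes. Ifit1 (chromosome 19, 34715379 to 34724499, mm9), which binds viral RNA that lacks cap methylation and whose promoter holds 2 of the interferon elements above, measured 24.4 at 0 h and 221 at 24 h. The log2 change was 3.17 (2.97 to 3.40), and the level was 228 at 6 h and 335 at 48 h. It thus stood about as high at 6 h as at 24 h. Its neighbour Ifit3, of the same family, went from 48.5 to 259 (log2 change 2.42), and Ifit2 from 58.8 to 231 (1.97). Isg15, a ubiquitin-like protein joined to other proteins, went from 97.1 to 400 (2.04), and Rsad2, which makes a chain-terminating nucleotide, from 84.9 to 326 (1.94). Ifit genes resemble each other in sequence, as do Oas1a and Oas1g, so reads may be shared within these families.

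Among the regulators and sensors of the interferon pathway some rose and others did not reach 2-fold. The transcription factor gene Irf7 went from 282 to 790 (log2 change 1.49) and Stat2 from 252 to 523 (1.05), while Irf9 measured 172 and 221 (0.36) and Irf1 217 and 309 (0.51). The call of Stat2 was lost in the values as deposited and after correction for expression level. Ddx58, the RIG-I sensor of viral RNA, rose from 128 to 274 (1.09), and the sensor gene Ifih1 measured 79.0 and 141 (0.84). The smallest change in the list was that of Trim25, a ubiquitin ligase that acts on RIG-I, at 453 and 538 (0.25). The interferon-beta gene Ifnb1 had 1 read at 0 h and 0 at 24 h, too few to describe.

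GTPases of the GBP and IRG families, which attack the membranes of vacuoles that hold microbes, had the highest median of the lists, 1.17. Of 15 tested members 10 rose, beside 2.38% of all tested genes, and 0 fell. Gbp5, which promotes inflammasome assembly, went from 11.2 to 46.1 (log2 change 2.03, 1.72 to 2.37). Tgtp1 and its near-identical neighbour Tgtp2 went from 16.3 to 56.9 (1.80) and from 34.3 to 117 (1.77), and how reads were divided between them is uncertain. Gbp6, Gbp10 and Iigp1 rose by 1.60, 1.74 and 1.53 on the log2 scale. Gbp4 measured 14.2 and 14.7, the least changed member. Levels of Gbp2, Gbp3 and Gbp5 were 188, 129 and 58.7 at 6 h and 121, 98.7 and 46.1 at 24 h, higher at the earlier time, whereas Gbp6 measured 156 and 189.

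Class I antigen presentation genes, which interferons also induce, had a median log2 change of 0.32, and 19 of 20 tested members had a change above 0, beside 51.5% of all tested genes. None of the 20 was called, a count near what the 2.38% of all genes that rose would give. B2m, the light chain of class I molecules, measured 3426 and 4278, and H2-K1, a classical heavy chain, 2596 and 3194. H2-T22 had the largest change of the list at 344 and 564 (log2 change 0.71). The non-classical class I gene H2-M2 (chromosome 17, 37617796 to 37620474, mm9) was outside that list and had the largest rise of all tested genes, from 11.8 to 136, or 11.4-fold (log2 change 3.51, 3.13 to 3.95). Of 5 tested genes of class II presentation none was called, the largest change being that of H2-Ab1 (69.4 and 134, 0.95).

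**Figure D2:**
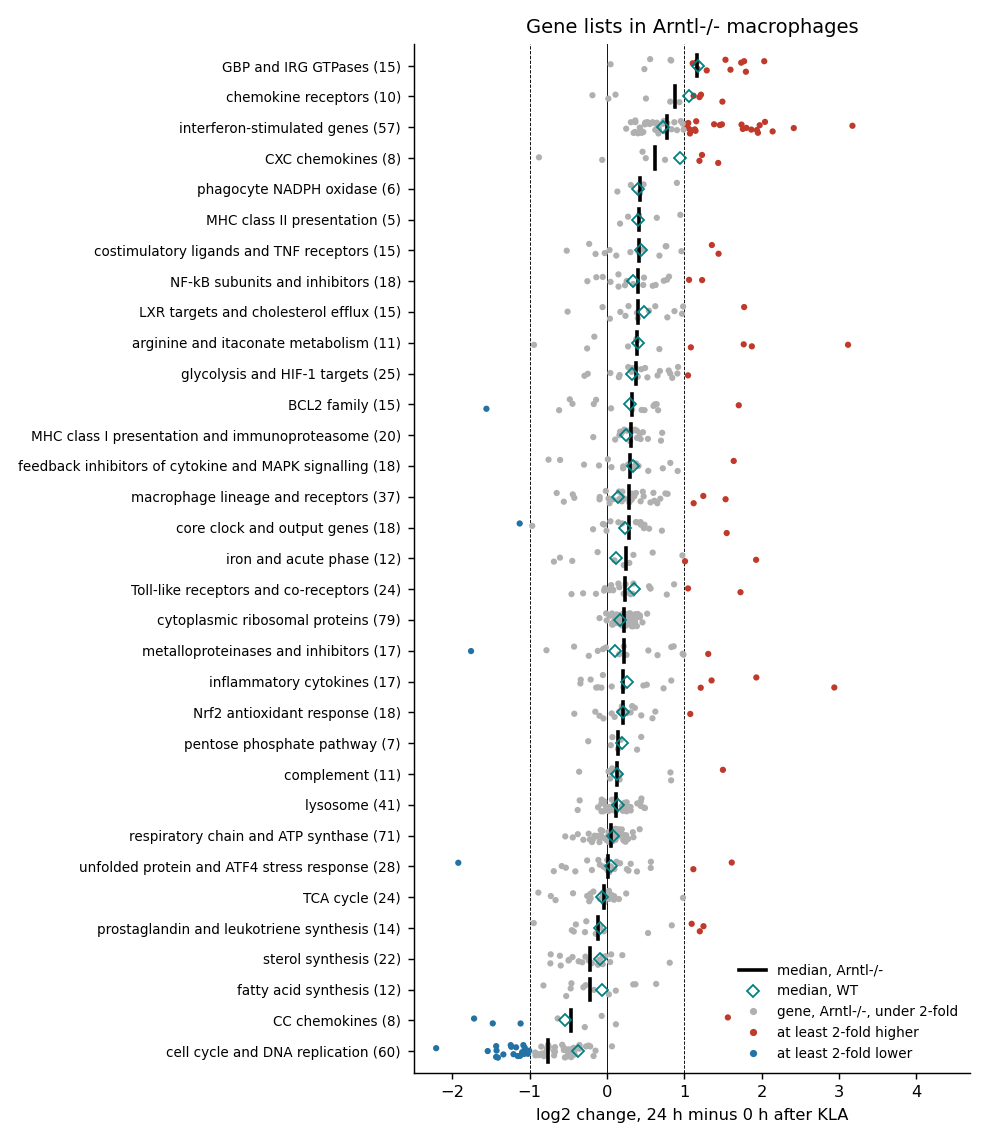
Log2 change from 0 to 24 h after KLA in Arntl-/- cells (x axis) of the tested genes of 33 lists, 1 point a gene with the number tested in brackets, with vertical lines at no change and at 2-fold. Black bars are the Arntl-/- medians and open diamonds the WT medians, and the bars run from 1.17 for GBP and IRG GTPases to -0.77 for cell cycle genes.

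Nos2 (chromosome 11, 78734361 to 78773626, mm9), the inducible nitric oxide synthase, measured 31.5, 135, 274 and 523 at the 4 times. The rise to 24 h was 8.68-fold (log2 change 3.12, 2.97 to 3.28). Unlike Ifit1, its level stood higher at each later time. In the list of arginine and itaconate metabolism 4 of 11 tested genes rose and 0 fell, beside 2.38% and 3.02% of all tested genes, and over the scalings tried 3 to 4 rose and 0 to 1 fell. Irg1, which makes itaconate and is also named Acod1, was among the most abundant genes that rose, from 1008 to 2137 (1.08), a call lost after correction for expression level (0.93). Odc1, the first enzyme of polyamine synthesis, measured 385 and 200 (-0.94), just short of the call, and was called in the values as deposited (-1.01).

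Cytokine genes divided between a few that rose and a majority that did not. Of 34 listed genes 17 were tested, of which 4 rose and 0 fell, with a median of 0.21, while 2.38% of all tested genes rose. Il1b (chromosome 2, 129190316 to 129196856, mm9), the secreted interleukin-1, went from 92.1 to 707, or 7.67-fold (log2 change 2.94, 2.78 to 3.10), and measured 199 at 6 h and 699 at 48 h. Il1a, the membrane-associated form, went from 21.3 to 54.7 (1.35), and Vegfa, the angiogenic growth factor, from 108 to 411 (1.93). Tnfsf15, a ligand of the TNF family, rose from 8.47 to 19.8 (1.21). Tnf, an early product of NF-kB, measured 605 at 0 h, 785 at 6 h and 522 at 24 h, and the antagonist gene Il1rn 672, 915 and 647. Both thus stood near their starting level at 24 h.

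The other 17 cytokine genes did not reach the read limit in WT cells and are given as reads. In Arntl-/- cells Il6 had 18, 33, 63 and 9 reads at the 4 times. Il12a, a subunit of interleukin-12, had 22, 61, 134 and 60 reads but never 100 scaled reads in a WT library, while Il12b, its partner, had 16 reads at 0 h and 25 at 24 h. Il10, the anti-inflammatory cytokine, had 74 and 60 reads, and Il23a had 0 in both. The intervals of the log2 change were 1.35 to 2.97 for Il6 and 2.27 to 3.65 for Il12a.

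Of 8 tested CC chemokine genes 3 fell and 1 rose, beside 3.02% and 2.38% of all tested genes. Ccl2, Ccl7 and Ccl12, neighbouring genes on chromosome 11 whose products attract monocytes, fell. Ccl2 measured 2161 at 0 h, 2515 at 6 h and 996 at 24 h (log2 change -1.12, -1.19 to -1.04), Ccl7 measured 1561, 1774 and 561 (-1.48), and Ccl12 250, 246 and 75.9 (-1.72). The 6 h values of Ccl2 and Ccl7 were thus above the starting ones. Ccl5, a chemoattractant for T cells, was the CC chemokine gene that rose, from 127 to 374 (1.56). Ccl8 was below the read limit with 23 reads at 0 h and 13 at 24 h.

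Of 8 tested CXC chemokine genes 3 rose and 0 fell, where 2.38% of all tested genes rose. Cxcl10, an interferon-induced ligand of CXCR3, went from 89.0 to 241 (log2 change 1.44) after 465 at 6 h. Cxcl3, which attracts neutrophils, went from 281 to 644 (1.20), and Cxcl5, of the same group, from 8.93 to 21.1 (1.23). Of 10 tested chemoattractant receptors 4 rose and 0 fell, again beside 2.38% of all genes, with a median of 0.88. Cxcr4, the receptor that retains cells in the marrow, went from 196 to 553 (1.49), and Cx3cr1, the fractalkine receptor, from 102 to 233 (1.20). Fpr2, a receptor for formylated peptides, rose from 369 to 858 (1.22) and Cmklr1, the chemerin receptor, from 130 to 283 (1.12).

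Of 24 tested genes of Toll-like receptors and their partners 2 rose, Tlr2 and Ticam2, and 0 fell. These counts and those of the next lists are small, and 2.38% of all tested genes rose. Tlr2, which senses bacterial lipopeptides, went from 274 to 905 (log2 change 1.73). Ticam2, the adaptor that carries the TLR4 signal to TRIF, rose from 86.2 to 178 (1.05). Tlr4 itself measured 182 and 192, its partner Ly96, which encodes MD-2, 124 and 121, and the coreceptor gene Cd14 1513 and 2586 (0.77). Tlr9, the DNA sensor, measured 33.5 and 39.6. Of 18 NF-kB subunits and inhibitors 2 rose, Bcl3, a nuclear IkB protein whose promoter holds the kB consensus above, from 145 to 341 (1.23), and the inhibitor gene Nfkbie from 134 to 279 (1.06). The calls of Ticam2 and Nfkbie were lost in the values as deposited. The subunit gene Rela measured 269 and 375, and the A20 gene Tnfaip3 253 and 244. Among 18 feedback inhibitors Socs3, the brake on gp130 receptors, was the 1 that rose, from 185 to 577 (1.64).

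The most abundant genes that rose, beside those above, had varied roles. Hp, which encodes the haemoglobin-binding protein haptoglobin, went from 353 to 1343 (log2 change 1.93, 1.84 to 2.01). Thbs1, the matrix protein thrombospondin-1, went from 422 to 1368 (1.70), Acsl1, a long-chain acyl-CoA synthetase, from 412 to 1125 (1.45), and Clec4e, the mycobacterial glycolipid receptor Mincle, from 578 to 1256 (1.12). Cebpb, a transcription factor of the inflammatory response, rose from 402 to 1164 (1.53), and Sod2, the mitochondrial superoxide dismutase, from 463 to 978 (1.08). The call of Sod2 was lost when the change was corrected for expression level. A pair of very short transcripts, Mir6236 (122 bases of exon) and Mir7115 (63 bases), were called too, at 1740 and 4058 (1.22) and at 447 and 900 (1.01), and so short a length makes their FPKM uncertain. The call of Mir7115 was lost in the values as deposited (0.94) and with size factors of the 2 libraries alone (0.99).

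Several of the 20 genes with the largest rises have no place in the lists. Mturn, a regulator of differentiation, went from 13.9 to 88.8 (log2 change 2.67), and Cav1, the coat protein of caveolae, from 16.5 to 75.4 (2.18). Rab6b, a GTPase of Golgi transport, went from 1.63 to 10.6 (2.64), and Antxr1, a receptor of anthrax toxin, from 4.52 to 19.8 (2.11). Pydc3 and Pydc4, related pyrin-domain genes, went from 2.58 to 15.7 (2.56) and from 7.32 to 29.8 (2.01). Of the rest, Kcnf1, Ppm1n, Tmem150b, Ms4a4c, Best1, Ndrg4 and Rtn2, the largest log2 change was 2.37, for the potassium channel subunit gene Kcnf1.

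The falls were led in number by genes of DNA replication and the cell cycle. Of 60 tested genes 20 fell, beside 3.02% of all tested genes, and 0 rose. At least 1.5-fold lower were 36, beside 9.57% of all genes, 59 of 60 changes were below 0, and the median was -0.77. Ccnd1, the D-type cyclin that growth factors induce to leave G1, measured 600 at 0 h, 667 at 6 h and 130 at 24 h, a 4.62-fold fall (log2 change -2.21, -2.30 to -2.12). Mcm2, a subunit of the replicative helicase, measured 345, 220 and 118 (-1.54, -1.65 to -1.44), and 55.5 at 48 h. All 6 subunit genes of that helicase, Mcm2 to Mcm7, fell, the smallest change being that of Mcm6 (527 to 260, -1.02). Unlike Ccnd1, Mcm2 already stood lower at 6 h.

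The loading factors of the helicase fell with it, Cdc6 from 86.0 to 31.9 (log2 change -1.43) and Cdt1 from 418 to 157 (-1.41). So did Uhrf1, which maintains DNA methylation behind the fork, from 490 to 181 (-1.43), and Mybl2, a transcription factor of the S and G2 phases, from 132 to 49.0 (-1.43). Other members that did not reach 2-fold included Top2a, Mki67 and Birc5. Top2a, the topoisomerase that untangles DNA, measured 570 and 406 (-0.49), Mki67, the proliferation antigen Ki-67, 271 and 224 (-0.27), and Birc5, or survivin, 321 and 284 (-0.17). At 48 h the same genes measured 192, 132 and 124. Of the 60 genes E2f2 alone had a change above 0 (111 and 116).

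**Figure D3:**
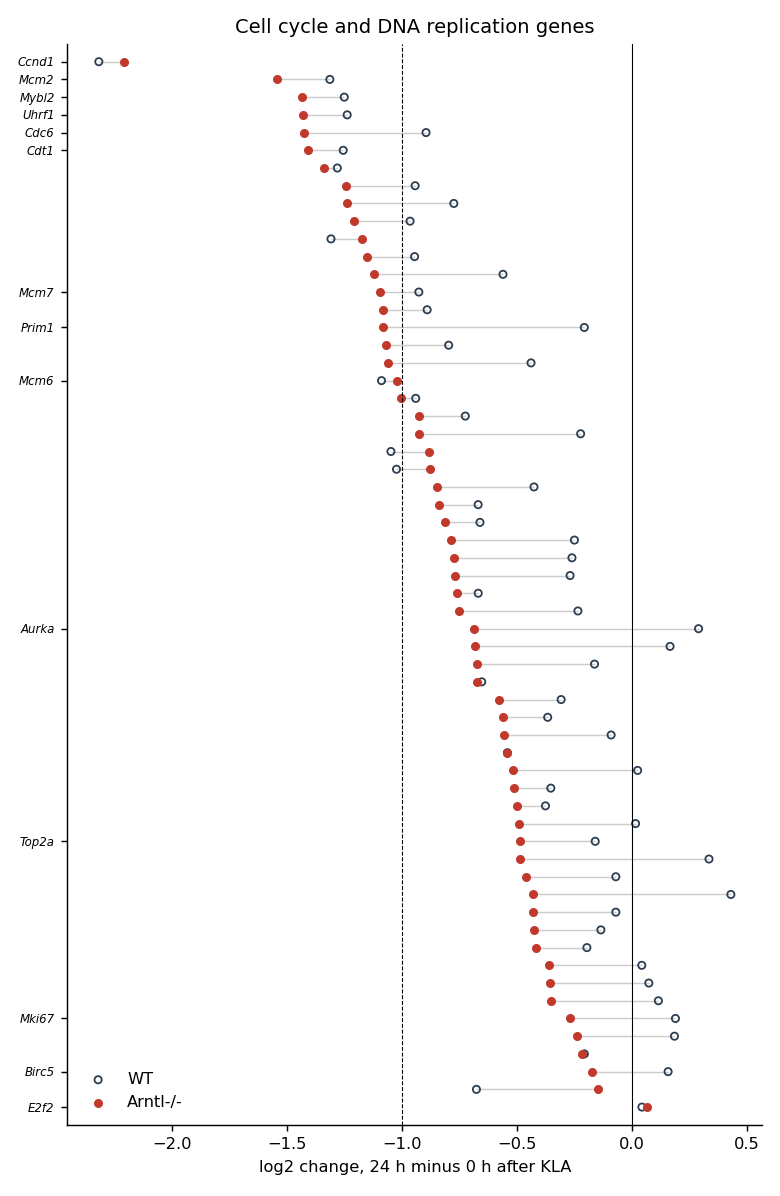
Log2 change from 0 to 24 h after KLA (x axis) of 60 cell cycle and DNA replication genes, ordered by the change in Arntl-/- cells (filled points), with the WT change of the same gene as an open circle, names beside those described in the text and a dashed line at a 2-fold fall. In Arntl-/- cells 20 genes lay at or left of the dashed line, and in WT cells 10.

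Genes outside the cell cycle list that fell included Myc, Bcl2, Plau and Psat1. Myc, the growth-promoting transcription factor, went from 133 to 32.7 (log2 change -2.01, -2.25 to -1.80), and Bcl2, the inhibitor of apoptosis, from 80.2 to 27.1 (-1.56), while Bmf, which opposes BCL2 proteins, rose from 11 to 36.1 (1.70). These were the 2 called of 15 tested BCL2 family genes, 1 each way, beside 2.38% of all tested genes that rose and 3.02% that fell. Plau, the urokinase protease, went from 836 to 247 (-1.76) and Mmp10, stromelysin-2, from 50.6 to 5.56 (-3.16). Psat1, of serine synthesis, fell from 155 to 40.8 (-1.92), and Gcat, of threonine breakdown, from 32.2 to 6.38 (-2.32). Hdac9, a class II histone deacetylase, fell from 54.6 to 13.2 (-2.04), and Sema3e, a secreted semaphorin, from 9.83 to 1.05 (-3.11). The value of Sema3e rests on 210 and 18 reads and was -2.40 with a pseudocount of 1.

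Ryk, a Wnt coreceptor with an inactive kinase domain, had the largest fall of all tested genes, from 133 reads to 4. Its level at the 4 times was 13.6, 13.0, 0.511 and 3.99, a log2 change of -4.49 (-6.63 to -3.35) from 0 to 24 h. The 24 h value thus rests on a handful of reads, and the change was -3.28 with a pseudocount of 1.

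Few genes of the lists of central metabolism were called, where 2.38% of all tested genes rose and 3.02% fell. Of 25 genes of glycolysis and HIF-1 targets 1 rose, Pfkfb3, which makes the activator of phosphofructokinase, from 337 to 697 (log2 change 1.05). Of the 25 changes 23 were above 0, beside 51.5% of all tested genes, and the median was 0.37. The call of Pfkfb3 was lost in the values as deposited (0.98) and after correction for expression level (0.92). Hif1a, the hypoxia-inducible factor, measured 274 and 516 (0.91), and Slc16a3, the lactate exporter, 422 and 798 (0.92). None of 24 genes of the TCA cycle was called. The changes among them ran from that of Idh1, the cytosolic isocitrate dehydrogenase (455 and 899, 0.98), to that of Idh3a, a subunit of the mitochondrial enzyme (162 and 87.7, -0.89). None of 71 respiratory chain genes was called, at a median of 0.06, which was -0.01 in the values as deposited.

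Sterol and fatty acid synthesis genes lay slightly below 0, with medians of -0.22 in both lists. None of 22 and 12 was called, where 2.38% of all tested genes rose and 3.02% fell. Sqle, which epoxidises squalene, measured 127 and 76.2 (log2 change -0.73), and Fasn, the fatty acid synthase, 86.7 and 49.0 (-0.82). Of 15 LXR target and cholesterol efflux genes 1 rose, beside the same 2.38%. It was Apoc2, a cofactor of lipoprotein lipase, from 48.9 to 167 (1.77). Apoe measured 1028 and 2034 (0.98) and the exporter gene Abca1 184 and 360 (0.97), both just under the call.

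Of 18 tested clock and clock output genes, Arntl among them, 1 rose and 1 fell from 0 to 24 h. Among all tested genes 2.38% rose and 3.02% fell. Nfil3, a repressor that binds the D-box, went from 47.2 to 138 (log2 change 1.55). Nr1d2, which encodes the nuclear receptor RevErb-beta, went from 6.15 to 2.76 (-1.13, -1.79 to -0.56) on 89 and 32 reads. That call was lost with a pseudocount of 1, and the WT level was 70.6 at 0 h and 95.4 at 24 h. Nr1d1, which encodes RevErb-alpha, measured 19.6 and 10.0 (-0.97, or -1.03 in the values as deposited) in Arntl-/- cells and 44.5 and 26.2 in WT cells. Of the repressors of the Clock and Bmal1 dimer, Cry1 measured 182 and 208, Cry2 58.1 and 95, Per1 83.4 and 80.5, and Per2 24.0 and 33.7. The WT levels of Cry1 were 39.6 and 53.5, below both Arntl-/- libraries.

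The same interval in WT cells, which shares no library with the Arntl-/- pair, gave 308 genes higher (2.94%) and 276 lower (2.63%). Of the genes that rose in Arntl-/- cells 153 (61.2%) also rose in WT cells, where they were 49.7% of the list, and of those that fell 136 (42.9%) also fell in WT cells, or 49.3% of that list. Across the 10487 genes the log2 changes had a Pearson r of 0.72 and a Spearman rho of 0.68. Genes are not independent replicates, and both changes rest on the same gene models, lengths and scaling. Nos2 went from 11.9 to 115 in WT cells (log2 change 3.27), Il1b from 46.2 to 594 (3.68) and Ifit1 from 24.0 to 147 (2.61). Each of these 4 conditions has a single library, so the difference between genotypes could not be tested.

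**Figure D4:**
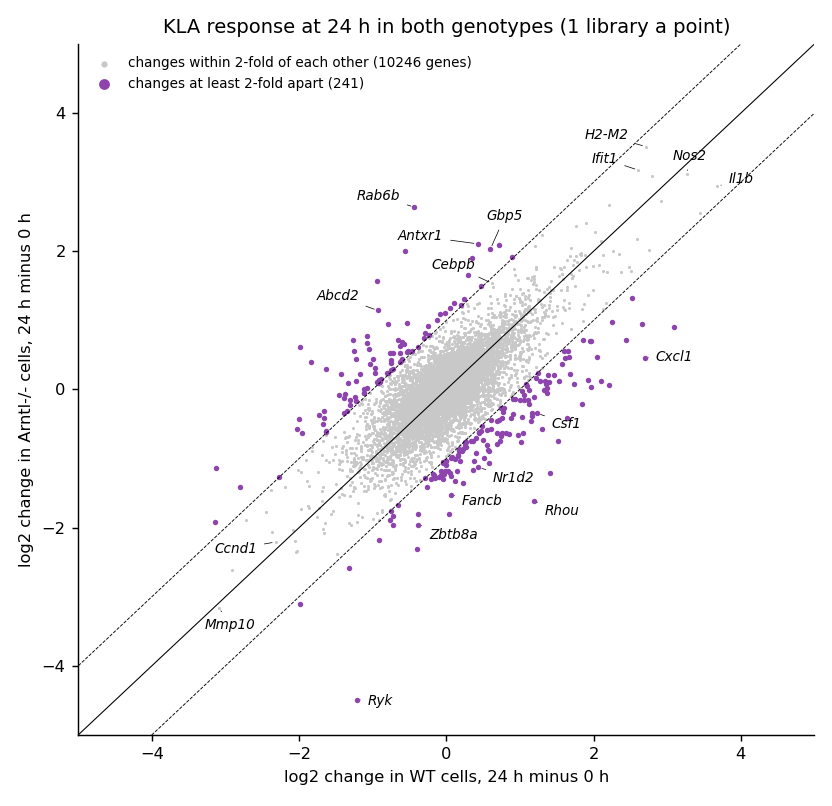
Log2 change from 0 to 24 h after KLA in WT cells (x axis) and in Arntl-/- cells (y axis) of 10487 genes, 1 point a gene, with a solid line at equal changes and dashed lines where they are 2-fold apart. Coloured points are the 241 genes whose changes were at least 2-fold apart, and most points lie near the solid line.

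The 2 changes were at least 2-fold apart for 241 genes, 92 with a higher change in Arntl-/- cells (0.877%) and 149 with a lower one (1.42%). With a mean of at least 100 scaled reads over the 2 Arntl-/- libraries required in place of 100 in any WT library, which kept 10030 genes, the count was 133 (60 and 73). The limit on WT libraries leaves out genes that reach it in Arntl-/- cells alone and so bears on the split of 92 and 149. With 100 scaled reads in any library of either genotype, an alternative chosen after seeing the data, 10656 genes entered and the counts were 118 and 166. Cxcl1, a neutrophil chemokine, was 52.6 at 0 h and 72.4 at 24 h in Arntl-/- cells and 13.0 and 84.8 in WT cells, so that its log2 changes were 0.46 and 2.70. Csf1, the gene of M-CSF, was 67.3 and 53.0 in Arntl-/- cells and 24.6 and 57.9 in WT cells (-0.34 and 1.23). For both the 0 h levels were further apart than the 24 h levels. The WT 0 h value of Cxcl1 rests on 26 reads.

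Gbp5, Fancb and Abcd2 were further apart at 24 h than at 0 h. Gbp5 was 11.2 and 46.1 in Arntl-/- cells and 10.2 and 15.5 in WT cells (log2 changes 2.03 and 0.60). At 6 h it was 58.7 and 52.6, so the genotypes were close at 0 and 6 h. Fancb, of the Fanconi anaemia repair pathway, was 35.2 and 12.2 in Arntl-/- cells and 27.2 and 28.4 in WT cells (-1.52 and 0.06). At 48 h it was 10.8 in Arntl-/- cells and 10.9 in WT cells. Abcd2, a peroxisomal fatty acid transporter, was 8.98 and 19.9 against 12.9 and 6.70 (1.14 and -0.93). Antxr1 was lower in Arntl-/- cells at 0 h and higher at 24 h, at 4.52 and 19.8 against 8.72 and 11.7 (2.11 and 0.42).

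For the cell cycle list the median change was -0.77 in Arntl-/- cells and -0.37 in WT cells, and the number that fell 20 and 10, where 3.02% and 2.63% of all tested genes fell. None of the 60 changes was 2-fold apart between the genotypes, where 0.877% of all tested genes were 2-fold higher and 1.42% lower in Arntl-/- cells. The change was higher in Arntl-/- cells for 7 of the 60, and the median difference of the log2 changes was -0.28. Prim1, the primase that starts new DNA strands, was 157 and 73.9 in Arntl-/- cells and 137 and 118 in WT cells. Aurka, a kinase of the mitotic spindle, was 230 and 143 against 203 and 248. By contrast the interferon list had medians of 0.78 and 0.73 and 22 and 21 genes that rose, where 2.38% and 2.94% of all tested genes rose. The GBP and IRG list had medians of 1.17 and 1.18 and 10 and 8 genes that rose. In each list 1 change was at least 2-fold higher in Arntl-/- cells than in WT cells.

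**Figure D5:**
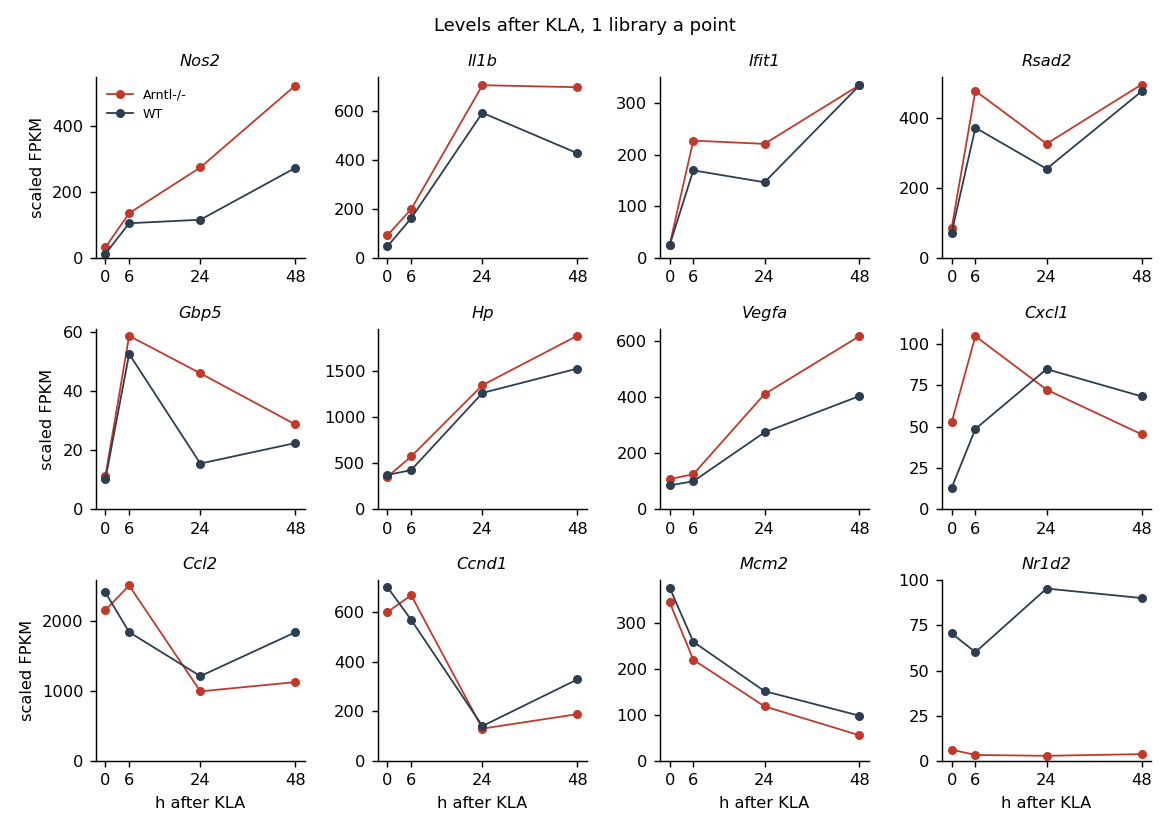
Scaled FPKM (y axis, from 0) at 0, 6, 24 and 48 h after KLA (x axis) of 12 genes in Arntl-/- and WT cells, with 1 library a point and lines joining the times. Nos2 reached 523 in Arntl-/- cells and 273 in WT cells at 48 h, and Nr1d2 stayed at or below 6.15 in the 4 Arntl-/- libraries.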

How the data were processed

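PolyA RNA-seq of Arntl-/- and WT BMDMs was used, 1 library for each of 2 genotypes and 4 times. The authors aligned paired-end reads to mm9 with STAR and used HOMER to count tags over the exons of RefSeq transcripts without regard to strand and with no more than 3 tags at a position (per the file headers), kept 1 transcript a gene, and deposited FPKM values per 10000000 reads. Versions are not given in the sources used here. Counting both strands cannot separate overlapping antisense genes, and the limit per position can hold down the most covered genes, which was not tested beyond an alternative without them.

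FPKM times length fell on whole multiples of 1 read in 100% of the low values examined (tolerance 0.15 reads), which gave the reads and depths. These were used for the counting intervals, the limits on reads, the rules for naming genes and the values given as reads. Levels and changes were taken from FPKM. Each library was scaled by its median-of-ratios size factor over the 8 libraries. Genes were kept with at least 100 scaled reads in 1 or more WT libraries. Scaled reads are the recovered reads divided by their own median-of-ratios size factor over the 8 libraries. Log2 changes used a pseudocount of 0.1, a call needed 2-fold, and intervals were exact binomial ones at the 95% level. Of the per-sample columns 4 were not used, and 1 line, a fragment, was dropped.

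The members and the 39 hand-written lists, of which 897 of 899 entries matched a gene, were chosen with earlier results of these data known. Genes were named by rule: those the study names; the 20 largest rises and falls with at least 100 reads in the higher library; the 10 most abundant genes risen or fallen; the 10 most above or below the WT change with 100 reads in each genotype; and list members at the extremes or needed for their role. The rule's promoter for Nos2 was not in the table, and that of Arntl, also named by the rule, was not printed. Promoter sequences are those of RefSeq for GRCm38.p6, and 80.7% of tested genes matched. The steps were tested on simulated data. Tools were pandas 2.3.3 and numpy 2.4.6 under Python 3.11.15, statsmodels 0.14.6, matplotlib 3.10.9 and scipy 1.17.1.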

Additional observations from a re-analysis of the deposited data

Results flagged for a closer look

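Rhou and 4931414P19Rik were singled out after their values were seen, because they moved at least 2-fold one way in one genotype and at least 2-fold the opposite way in the other. The difference was not tested, with 1 library a condition. Rhou fell from 48 reads to 12 in Arntl-/- cells (log2 change -1.61) and rose from 23 to 42 in WT cells (1.18), a difference of -2.80. 4931414P19Rik fell from 102 reads to 35 in Arntl-/- cells (-1.21) and rose from 34 to 72 in WT cells (1.41), a difference of -2.62. At 6 h Rhou had 72 reads in Arntl-/- cells. No other tested gene moved 2-fold in opposite directions.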

How the results depend on the processing

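The counts of genes at least 2-fold higher (250), at least 2-fold lower (317) and at least 2-fold apart between the genotypes (241) stayed within 1.5 times of these values under the other scalings, pseudocounts, the limit of 1 read per base and the counting interval, at 211 to 264, 270 to 375 and 204 to 247. With genes of at least 1 read, 17784 in all, they were 1564, 1973 and 4287. At 1.5-fold they were 818, 1004 and 994. With a mean of 100 scaled reads over the Arntl-/- libraries (10030 genes) they were 214, 246 and 133, and with 100 in any library of either genotype, chosen after seeing the data (10656 genes), 268, 329 and 284. Of the calls 44.1% were rises, 36.0% in the values as deposited and 49.1% after correction for expression level. Of 222 list medians recomputed under the other scalings, the lowess correction and the other pseudocounts 208 stayed within the order-statistic interval of the median over the list's genes, and of 564 values for named genes 543 stayed within their counting interval. The median of the unfolded protein list turned from 0.01 to -0.05 in the values as deposited and that of the respiratory chain from 0.06 to -0.01. Over the 5 scalings the interferon list had 19 to 23 genes that rose and the cell cycle list 19 to 20 that fell, while the Toll-like receptor and NF-kB lists each had 1 to 2 that rose, glycolysis 0 to 1 and the Nrf2 list 0 to 1. Of 65 named genes past 2-fold, Mir7115 lost its call in the values as deposited and with size factors of 2 libraries, Tubb6 with upper-quartile scaling, Irg1, Klc3 and Sod2 after correction for expression level, and Nr1d2 with a pseudocount of 1. Of the other list members called, Stat2, Oasl2, Pfkfb3, Ptges, Ticam2, Nfkbie, Ifi205, Cp and Gins1 lost the call under at least 1 of these settings, while Apoe, Idh1, Mmp3, Parp14, Serpinb2 and Vcam1 gained one as higher and Nr1d1, Odc1, Ptgs1 and Rrm2 as lower. No paired analysis was possible because each condition has 1 library and the labels give no replicate numbers, and for the same reason no library could be left out. Depth limits what can be said of genes under 100 reads.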

Other observations

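Prostaglandin and leukotriene genes had a median of -0.12 in Arntl-/- cells between 0 and 24 h, but 3 of 14 rose, beside 2.38% of all tested genes. These were Ptgs2, the inducible cyclooxygenase, from 93.4 to 222 (log2 change 1.25), Ptges, prostaglandin E synthase, from 408 to 872 (1.09), and Ltc4s, leukotriene C4 synthase, from 28.7 to 66.0 (1.20), while Ptgs1, the constitutive cyclooxygenase, measured 108 and 56.1 (-0.95). The call of Ptges was lost after correction for expression level. Of 11 complement genes 1 rose, Cfb, which encodes factor B, from 192 to 542 (1.5), against 399 and 555 in WT cells. Of 17 metalloproteinase and inhibitor genes Mmp2, gelatinase A, rose from 83.4 to 207 (1.31), Plau fell as given above, and Mmp10, which fell too, was not on that list, while Mmp9, gelatinase B, measured 1843 and 1824. Of 28 unfolded protein and ATF4 stress genes 2 rose and 1 fell, Psat1, as given above. Ddit4, an inhibitor of mTORC1, rose from 54.7 to 168 (1.61) and Slc7a11, the cystine transporter, from 81.9 to 178 (1.12).

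Small counts in the other lists stand beside the same 2.38% of all tested genes that rose. Of 37 macrophage lineage and receptor genes 3 rose, among them Axl, a receptor for apoptotic cells, from 6.89 to 16.5 (log2 change 1.25), against 10.5 and 11.3 in WT cells. Csf1r, the M-CSF receptor, measured 1371 and 2152 (0.65), and Mrc1, the mannose receptor, 857 and 546 (-0.65). Of 15 costimulatory and TNF receptor genes Fas, the death receptor, rose from 133 to 362 (1.44) and Tnfrsf14 from 204 to 523 (1.36), while Cd40 measured 79.1 and 55.1. Cp, the ferroxidase ceruloplasmin, rose from 27.2 to 54.9 (1.01), a call lost in the values as deposited, with size factors of 2 libraries and with a pseudocount of 1, and Saa3, an acute phase protein, measured 3035 and 5967 (0.98). None of 79 cytoplasmic ribosomal protein genes, 41 lysosomal genes, 7 pentose phosphate genes or 6 subunit genes of the phagocyte NADPH oxidase was called, at medians of 0.22, 0.12, 0.14 and 0.42. Of 18 Nrf2 targets Sod2 alone rose, a call lost after correction for expression level (0.95), and the haem oxygenase gene Hmox1 measured 1820 and 1949. S100a8, a calcium-binding protein of myeloid cells, measured 401 and 411.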
